A study of Mus musculus with 8 samples.

Results

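The collagen chain genes are the protein-coding genes that encode the α chains of the collagens, chosen here by their symbol alone, Col followed by the number of the collagen type and the number of the chain. The rule found 44 genes of 27 collagen types among the 55487 genes of the deposited tables. They were followed in LLC (Lewis lung carcinoma) cells, a mouse lung carcinoma line, grown in DMEM with 10% fetal bovine serum and antibiotics. mRNA was sequenced in 4 wild-type libraries and 4 libraries of Ago2 knock-out (ΔAgo2) cells, named biological replicates in the labels, which do not say how the cultures were separated, so that the p-values below measure the spread between these libraries only. Both groups carry the same batch label and differ in the targeted gene, which encodes Argonaute 2, the protein that holds a microRNA and is guided by it to mRNAs. ΔAgo2 cells were made with lentiviral CRISPR-Cas9 and a guide against Ago2, selected with puromycin and sorted as single cells into clones. The sources used here do not say from how many clones the ΔAgo2 libraries came or whether the wild-type cells had carried a vector, so the genotype, the clone and the vector cannot be told apart.

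Collagens are secreted proteins in which 3 α chains wind into a triple helix, either of identical chains or of chains from different genes. Types I, II, III, V and XI form the fibrils of connective tissue, with XXIV and XXVII as distant relatives. Type IV builds the sheet of basement membranes, type VI forms beaded microfibrils, types VIII and X form short-chain networks, and type VII makes the anchoring fibrils of skin. The FACIT collagens lie on the surface of fibrils, the transmembrane collagens sit in the cell membrane, and the multiplexins XV and XVIII are basement membrane collagens that carry sugar chains. In solid tumors fibroblasts are the usual main source of fibrillar collagen, and tumor cells add basement membrane chains.

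By class, the 44 genes comprised 11 fibrillar chains, 6 of type IV, 6 of type VI, 9 FACIT, 4 transmembrane, 3 short-chain network, 2 multiplexin and 2 other chains, together with Col7a1. A filter on low counts (edgeR's filterByExpr) left 22 of them, among 14228 genes tested in all. The 22 that passed were 8 fibrillar, 3 type IV, 3 type VI and 5 FACIT chains together with Col8a1, Col7a1 and Col18a1. No transmembrane chain passed.

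The libraries held between 39628101 and 68530912 counts. Wild-type replicate 4 stood apart. Its median Spearman correlation with the other wild-type libraries was 0.864, against 0.948 to 0.961 for the other 3 wild-type libraries and 0.985 to 0.986 within ΔAgo2, and 0.540% of its counts were mitochondrial, against 2.39% to 4.51% elsewhere. The deviation of a gene in that library from the wild-type mean followed the GC content of the gene (Spearman's rho 0.72 over the tested genes). Collagen genes are rich in GC, with a median of 57.9% among the 22 tested against 49.6% over all tested genes. Leaving out this library turned some log2 fold changes of genes or moved them by over 1.5 times. For those printed, the value without it is given in the text. For levels and p-values this was not done throughout. Ago2 mRNA was 303.6 ± 165 CPM in the wild-type and 351 ± 55.7 CPM in the ΔAgo2 libraries (SD, n = 4 each), with a log2 fold change of 0.21 (standard error, SE, 0.40, adjusted p = 0.908 by edgeR) and of -0.05 without wild-type replicate 4. An edit that stops the protein can leave the mRNA in place, and the RNA level therefore does not check the labels. The study itself measured Ago2 protein in wild-type and ΔAgo2 LLC cells by western blot. CPM are counts relative to the library size, which was scaled by edgeR's TMM factors.

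Collagen mRNAs are textbook targets of the miR-29 family, and their 3′ untranslated regions (UTRs) were searched for the family's seed match. The 3 mature miRNAs, from RefSeq (GRCm38.p6), share bases 2 to 8, the seed, shown in capitals.
miR-29a-3p: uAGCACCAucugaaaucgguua
miR-29b-3p: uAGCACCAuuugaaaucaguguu
miR-29c-3p: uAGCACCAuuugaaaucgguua
The matching 7 bases in mRNA are TGGTGCT. A match lay in the 3′ UTR of 24 of the 44 collagen genes (54.5%), taking the longest coding transcript of each gene in GENCODE M21 (GRCm38), against 11.8% of 20993 protein-coding genes of the table. Collagen 3′ UTRs held 0.760 matches per kilobase, against 0.107 over all protein-coding genes. A match followed by A, the longer form of the site, was found in 15 collagen genes (34.1%), against 2.62%. The sites below are those of some of the chains to which the results return, with the match in capitals and the mRNA strand read 5′ to 3′.
Col8a1, chr16:57624706-57624712, minus strand: ttctaccaTGGTGCTaatatcag
Col6a3, chr1:90767412-90767418, minus strand: tgtcaataTGGTGCTaaatgtgt
Col6a2, chr10:76596171-76596177, minus strand: cccatctgTGGTGCTaataggac
Col4a1, chr8:11199762-11199768, minus strand: tcacaacaTGGTGCTactccccc
Col3a1, chr1:45348982-45348988, plus strand: tgtctcaaTGGTGCTataataaa
Col2a1, chr15:97975682-97975688, minus strand: ctacacaaTGGTGCTattctgtg
Col27a1, chr4:63333920-63333926, plus strand: gaaatcgcTGGTGCTcacaattg
Col4a5 carried 3 matches followed by A, the most of any collagen gene here.
Col4a5, chrX:141688253-141688259, plus strand: cccaccaaTGGTGCTaatatcct
Col4a5, chrX:141688534-141688540, plus strand: ctttttcaTGGTGCTactaatcc
Col4a5, chrX:141688957-141688963, plus strand: tattattcTGGTGCTatgcaaga
Col5a1 and Col5a3 carried 4 and 3 matches of 7 bases. Col6a1, the partner chain of Col6a2 and Col6a3, carried none, and neither did Col18a1. A match is a description of the letters and not a measured site.

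Which collagens LLC cells express was read from TPM, the deposited values scaled by gene length, since levels of different genes can be compared only per length. 6 genes carried most of the collagen mRNA. In order of mean TPM over the 8 libraries they were Col4a1 (795 TPM), Col18a1 (741 TPM), Col4a2 (520 TPM), Col3a1 (463 TPM), Col5a1 (237 TPM) and Col16a1 (168 TPM), and together they made up 83.8% to 95.7% of the summed collagen TPM of a library. Col4a1 was above Col18a1 in 5 of 8 libraries and Col4a2 above Col3a1 in 4 of 8, so these neighbours could not be ordered, whereas Col5a1 was above Col16a1 in 8 of 8. Next came Col6a1 (86.4 TPM), Col8a1 (40.2 TPM), Col4a5 (26.7 TPM), Col6a2 (22.8 TPM), Col5a3 (14.5 TPM), Col6a3 (10.4 TPM) and Col7a1 (9.92 TPM). The remaining 9 tested genes had mean levels of 0.0600 to 2.05 TPM. The pattern was thus of basement membrane chains and of type III and V among the fibrillar chains, with the chains of type I, the main collagen of bone and skin, near the bottom of the list. Col1a1 was between 0.380 and 1.47 TPM in the 8 libraries. Col1a2, its partner chain, did not pass the filter, with 2, 41, 1 and 36 counts in the wild-type and 8, 2, 0 and 0 counts in the ΔAgo2 libraries.

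**Figure D1:**
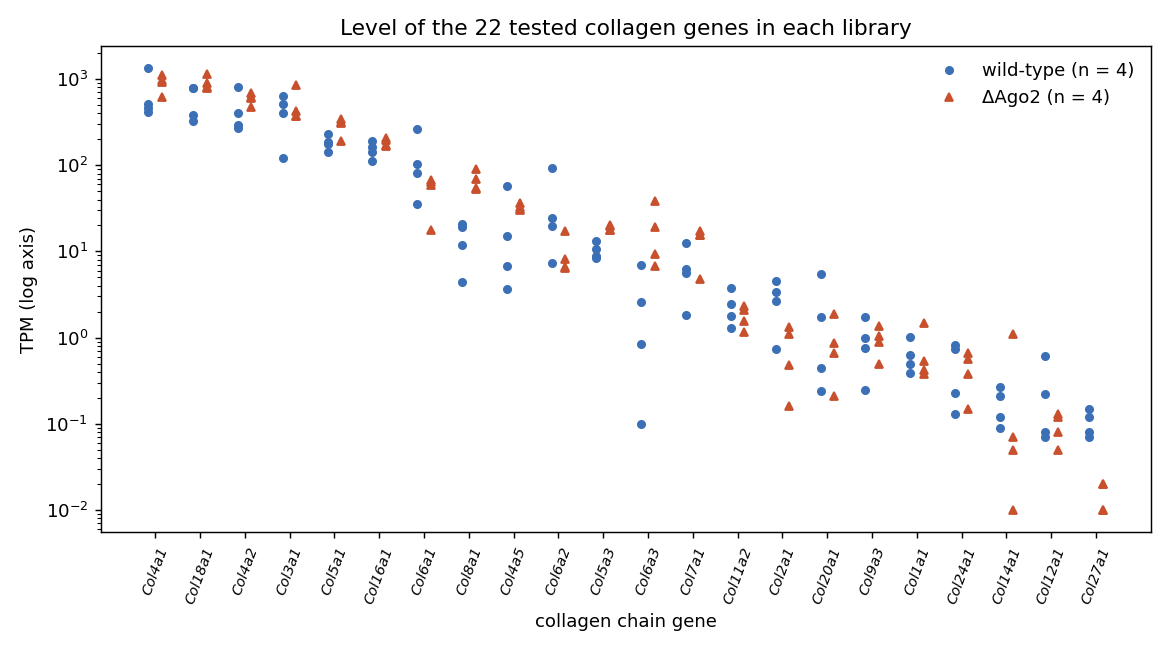
Level of each of the 22 tested collagen chain genes in each library, in TPM on a log axis, ordered by the mean over all libraries, with circles for wild-type and triangles for ΔAgo2. The mean levels run from 795 TPM for Col4a1 to 0.0600 TPM for Col27a1, and the groups overlap for most genes.

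The label lung carcinoma was checked against markers. The keratins Krt8 (66.8 to 741 TPM) and Krt18 (179 to 928 TPM) and the mesenchymal intermediate filament gene Vim (2217 to 4193 TPM) were high in every library. Krt19, another keratin of the epithelial list, was at only 0.27 to 4.70 TPM. Of the other mesenchymal markers, Fn1 was at 422 to 960 TPM, Zeb1 at 3.72 to 31.2 TPM and Cdh2 at 2.21 to 12.3 TPM. The epithelial adhesion genes Epcam and Cdh1 did not exceed 0.120 TPM, and the lung markers Nkx2-1, Sftpb and Scgb1a1 were listed at 0 in every library. Sftpc did not exceed 0.05 TPM, and Napsa, the fifth marker of lung epithelium, was at 0.8 to 1.94 TPM in the wild-type and 0.160 to 0.410 TPM in the ΔAgo2 libraries (adjusted p = 0.0824 by edgeR and 1.0e-04 by DESeq2). Of 6 fibroblast markers, Thy1 and Fap did not exceed 0.140 TPM, and the summed level was 5.01 to 26.3 TPM in wild-type and 14.6 to 30.7 TPM in ΔAgo2 libraries. Pdgfra was at 2.66 to 21.8 TPM against 13.4 to 28.9 TPM, and Pdgfrb at 0.780 to 2.78 TPM against 0.170 to 1.00 TPM (adjusted p = 0.440 by edgeR and 0.0400 by DESeq2). Over all libraries Dcn was at 0.19 to 4.73 TPM and Lum at 0 to 0.87 TPM. The part of these markers in the collagen values was not tested. The 4 endothelial markers together reached at most 0.770 TPM, and of the 5 leukocyte markers Lyz2 alone exceeded 0.05 TPM (1.19 to 6.30 TPM), with Cd3e at 0 throughout. In bulk RNA, fewer cells of a type and less RNA per cell cannot be told apart.

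The summed collagen level was 2292, 2346, 3627 and 2421 TPM in wild-type replicates 1 to 4 and 3735, 3495, 2977 and 4257 TPM in ΔAgo2 replicates 1 to 4. The means were 2671 ± 639 and 3616 ± 531 TPM (SD, n = 4 each), which is 0.229% to 0.426% of all TPM in a library. Wild-type replicate 3 lay inside the ΔAgo2 range, so the groups overlapped. Type IV made up 702 to 2200 TPM of the wild-type and 1130 to 1829 TPM of the ΔAgo2 sums. The sum of the type VI chains overlapped as well, at 42.6 to 358 TPM in wild-type and 43.5 to 123 TPM in ΔAgo2 libraries. Of the classes with a summed level over 1 TPM in every library, the groups did not overlap for the short-chain network, which was almost wholly Col8a1 (4.44 to 20.5 TPM against 52.5 to 90.2 TPM), nor for the multiplexins, almost wholly Col18a1 (329 to 786 TPM against 792 to 1151 TPM). The multiplexin groups nearly touched in TPM. In CPM those of Col18a1 overlapped (684 to 1769 CPM against 1510 to 2288 CPM). The share of all genes without overlap in TPM is not given here.

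Whether the chains differ between wild-type and ΔAgo2 cells was tested with edgeR's quasi-likelihood test over all 14228 genes. None of the 22 collagen genes passed an adjusted p of 0.05, where 0.295% of all tested genes did (42 genes, 0.0773% higher and 0.218% lower in ΔAgo2). With an unadjusted p under 0.05 there were 7 of 22 (31.8%), against 7.34% of all tested genes. Those higher in ΔAgo2 were Col8a1 and Col6a3, against a background of 2.72%, and those lower were Col27a1, Col2a1, Col6a2, Col6a1 and Col12a1, against 4.62%. DESeq2, run as an alternative, gave 3 of these 22 genes an adjusted p under 0.05, namely Col8a1, Col27a1 and Col6a3. It did so for 297 of the 14228 genes tested by edgeR. Over all 17926 genes to which DESeq2 gave an adjusted p, the share was 2.23%. The 4 CPM values of a group lay wholly above those of the other for 3 of the 22 (13.6%), against 6.07% of all tested genes. These were Col8a1 and Col6a3, higher in ΔAgo2 against a background of 3.09%, and Col27a1, lower against 2.98%.

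The log2 fold change (ΔAgo2 against wild-type) was above 0 for 12 of the 22 collagen genes and below 0 for 10, and above 0 for 41.2% of all tested genes. The median was 0.04 for the collagen genes and -0.11 for all tested genes. With limma on log2(TPM + 1) the medians were 0.20 and 0.15, and with library size alone in place of TMM 0.17 and -0.0077. Without wild-type replicate 4 they were 0.25 and -0.04. The spread between replicates is given beside these values. The median SD of log2 CPM was 0.82 in wild-type and 0.50 in ΔAgo2 libraries for the 22 genes, against 0.76 and 0.23 for all tested genes, and without wild-type replicate 4 the wild-type values were 0.84 and 0.42.

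**Figure D2:**
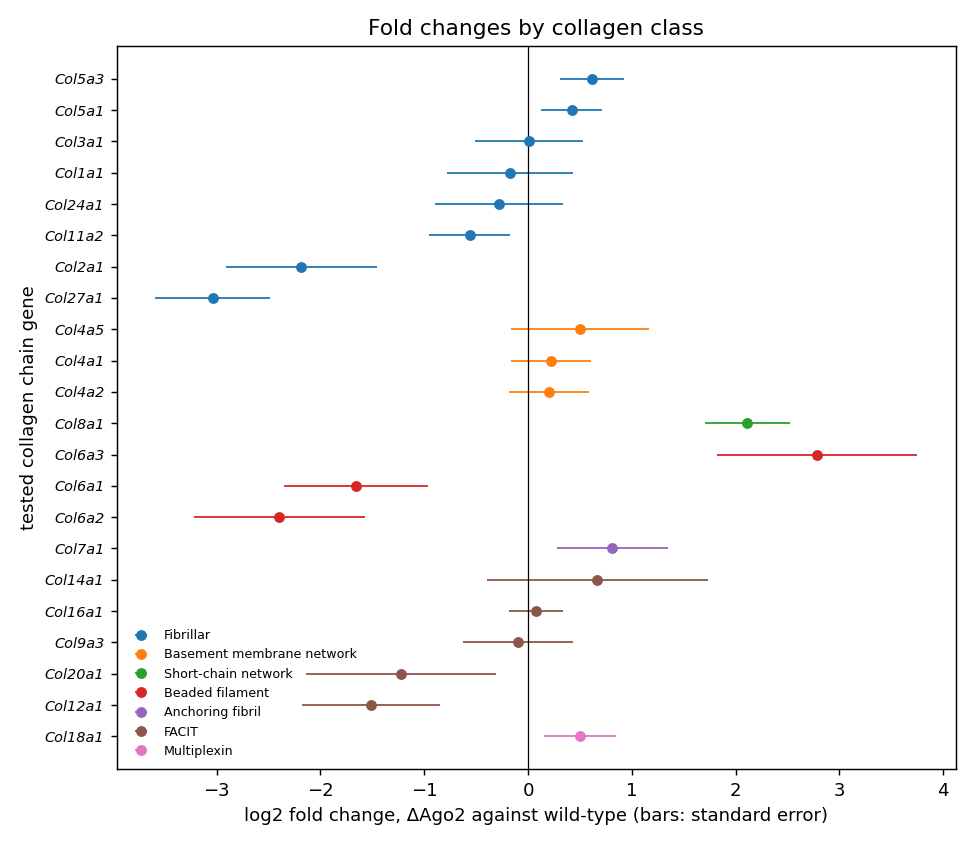
Log2 fold change of each tested collagen chain gene, ΔAgo2 against wild-type, with its SE from the edgeR fit on 4 libraries per group, coloured by class. Col6a3 (2.79) and Col8a1 (2.11) lie to the right, Col27a1 (-3.04), Col6a2 (-2.40) and Col2a1 (-2.18) to the left, and the type IV chains lie between 0.20 and 0.50.

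Col8a1 (ENSMUSG00000068196, chr16:57624258-57754737, minus strand) encodes a chain of the short-chain collagen of vessel walls and of the membrane behind the cornea. Its level was 52.1, 23.7, 44.0 and 15.7 CPM in the wild-type and 142, 113, 209 and 122 CPM in the ΔAgo2 replicates 1 to 4. The groups did not overlap, and this also held in TPM, from 4.44 to 20.5 TPM against 52.4 to 90.2 TPM. The means were 33.9 ± 17 and 146 ± 43.3 CPM (SD, n = 4 each). The log2 fold change was 2.11 (SE 0.41), with an adjusted p of 0.0862 by edgeR and of 2.0e-04 by DESeq2. Without wild-type replicate 4, the lowest library, it was 1.89 and passed by edgeR (adjusted p = 0.0351, with 0.777% of all tested genes called). With each library corrected for GC content it was 2.00 and also passed by edgeR (adjusted p = 0.0234, with 0.492% called), as it did when the replicate number was added to that correction as a block (adjusted p = 0.0132, with 0.436% called). With that block and no GC correction it was 2.23 and did not pass by edgeR (adjusted p = 0.0639). Over the 19 alternatives its adjusted p ran from 2.0e-04 to 0.245, and in most of them Col8a1 did not pass. Its partner chain Col8a2 did not pass the filter, with at most 4 counts in a library.

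The type VI chains did not go together. Collagen VI is built of an α1, an α2 and usually an α3 chain in equal parts. Col6a1 (chr10:76708792-76726168, minus strand) was at 115, 116, 45 and 521 CPM in the wild-type and 68.6, 76.2, 23.1 and 84.3 CPM in the ΔAgo2 libraries. Col6a2 (chr10:76595762-76623630, minus strand), which lies beside it, was at 65.9, 41.6, 17.6 and 349 CPM in the wild-type and 14.3, 18.5, 16.4 and 40.8 CPM in the ΔAgo2 libraries. For both genes wild-type replicate 4 was far above the rest and the groups overlapped. The log2 fold changes were -1.66 (SE 0.70, adjusted p = 0.642 by edgeR) for Col6a1 and -2.40 (SE 0.83, adjusted p = 0.503) for Col6a2. Without wild-type replicate 4 they were -0.54 and -0.87, so that this library set much of their size.

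Col6a3 (chr1:90765923-90843971, minus strand) went the other way. It was at 9.90, 21, 0.357 and 4.59 CPM in the wild-type and at 21.2, 30.8, 67.2 and 129 CPM in the ΔAgo2 libraries, with means of 8.97 ± 8.93 and 62.0 ± 48.7 CPM (SD, n = 4 each). The groups touched. Wild-type replicate 2 lay just below ΔAgo2 replicate 1 in CPM, and just above it in TPM (6.87 against 6.70 TPM). The fitted log2 fold change was 2.79 (SE 0.96), with an adjusted p of 0.503 by edgeR and of 0.0404 by DESeq2, and it was 2.58 without wild-type replicate 4. Col6a4, Col6a5 and Col6a6, which encode chains related to α3, did not exceed 9 counts in any library.

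**Figure D3:**
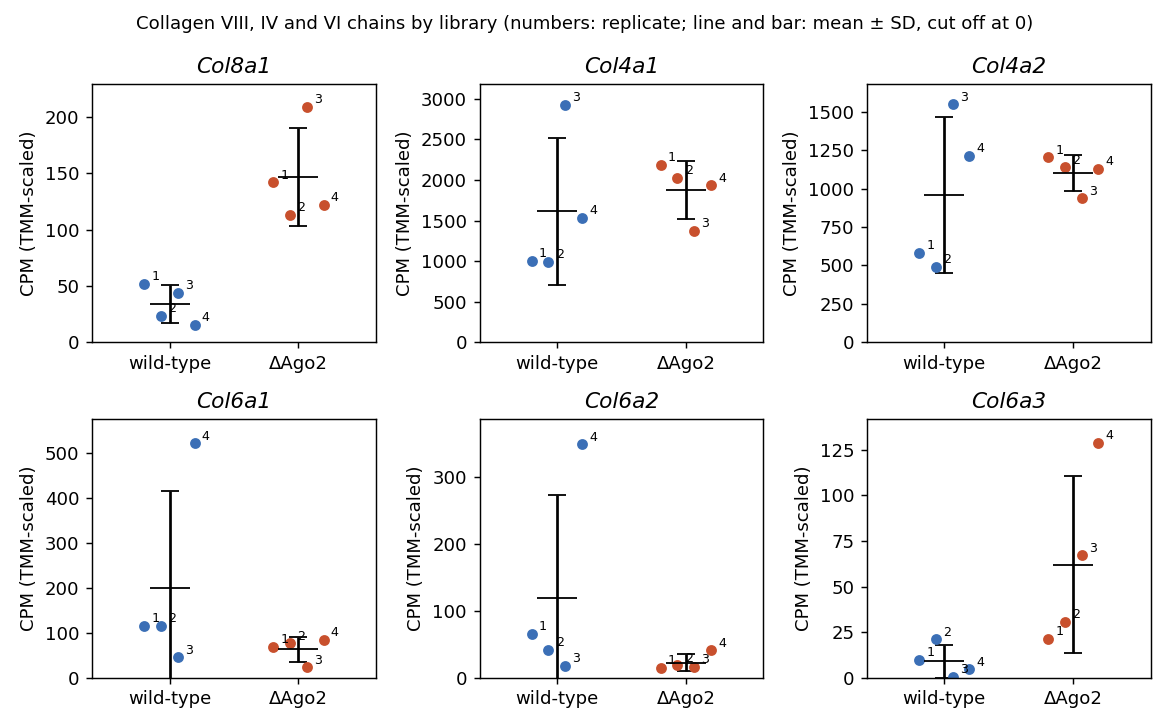
CPM of Col8a1, of the type IV chains Col4a1 and Col4a2 and of the type VI chains Col6a1, Col6a2 and Col6a3 in each library (numbered by replicate), with the mean and SD of the 4 libraries of a group. Col8a1 separates the groups, Col4a1 and Col4a2 overlap and share their pattern over libraries, wild-type replicate 4 is the highest for Col6a1 (521 CPM) and Col6a2 (349 CPM), and Col6a3 is highest in ΔAgo2 replicate 4 (129 CPM).

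The proportions of partner chains were compared in TPM. The ratio of Col6a1 to Col6a2 was 3.32, 5.28, 4.86 and 2.84 in wild-type and 9.12, 7.81, 2.67 and 3.93 in ΔAgo2 libraries. The log2 difference of 0.41 did not separate the groups (p = 0.429, exact permutation test over libraries, two-sided, adjusted p = 0.857 over the 2 ratios tested, where the design allows no p under 0.0286). The ratio of Col6a3 to Col6a1 was 0.0315, 0.0666, 0.00284 and 0.00322 in wild-type and 0.113, 0.148, 1.07 and 0.559 in ΔAgo2 libraries. This ratio was not tested, since Col6a3 was under 1 TPM in some libraries, and its 4 ΔAgo2 values were all above the wild-type values. Over the 8 libraries the log2 CPM of Col6a1 and Col6a2 went together (Pearson's r 0.91, Spearman's rho 0.90), whereas that of Col6a1 and Col6a3 did not (r -0.17, rho -0.29). These correlations describe 8 libraries that share their depth and scaling.

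The basement membrane chains of type IV were high in both groups and overlapped between them. Col4a1 (chr8:11198423-11312826, minus strand) and Col4a2 (chr8:11312805-11449287, plus strand) encode the α1 and α2 chains of the common α1α1α2 molecule and lie head to head, with start sites 21 bases apart. Col4a1 was at 1004, 988, 2924 and 1534 CPM in the wild-type and 2187, 2026, 1371 and 1933 CPM in the ΔAgo2 libraries. Col4a2 was at 583, 490, 1549 and 1215 CPM in the wild-type and 1205, 1138, 936 and 1129 CPM in the ΔAgo2 libraries. In both genes wild-type replicate 3 was the highest and replicates 1 and 2 were the lowest, and the ΔAgo2 values fell inside the wild-type range. The log2 fold changes were 0.22 (SE 0.39, adjusted p = 0.902 by edgeR) and 0.20 (SE 0.38, adjusted p = 0.910), and without wild-type replicate 4 that of Col4a2 was 0.34. Their log2 CPM had a Pearson's r of 0.93 and a Spearman's rho of 0.86 over the 8 libraries. For comparison, Col4a1 and Col5a1, on different chromosomes, had 0.76 and 0.71. No wider set of gene pairs was compared, and the part of the nearby start sites was not tested.

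The ratio of Col4a1 to Col4a2 was 1.53, 1.79, 1.67 and 1.12 in wild-type and 1.61, 1.58, 1.30 and 1.52 in ΔAgo2 libraries, with means of 1.53 ± 0.292 and 1.5 ± 0.140 (SD, n = 4 each, p = 0.943, exact permutation test, two-sided). It ranged less over the libraries than either level did. Col4a5 (chrX:141475385-141689234, plus strand), a chain of the α3α4α5 and α5α5α6 molecules of kidney and other basement membranes, was the third type IV gene tested. It was at 33.1, 6.26, 113 and 20.5 CPM in the wild-type and 65.2, 57.3, 59.8 and 62.3 CPM in the ΔAgo2 libraries, with a log2 fold change of 0.50 (SE 0.67, adjusted p = 0.858 by edgeR), or 0.28 without wild-type replicate 4. Its ΔAgo2 values were close together while the wild-type values ranged widely. Col4a3, Col4a4 and Col4a6, the chains it needs as partners, did not exceed 6, 18 and 5 counts in a library.

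Among the fibrillar chains, Col3a1 (chr1:45311538-45349706, plus strand), the chain of the fine fibrils of skin and vessels, was the most abundant. It was at 1281, 1612, 348 and 2299 CPM in the wild-type and 972, 1007, 1231 and 2362 CPM in the ΔAgo2 libraries, with a log2 fold change of 0.01 (SE 0.52, adjusted p = 0.998 by edgeR), or 0.37 without wild-type replicate 4. Type V chains join fibrils of type I and set their thickness. Col5a1 (chr2:27886425-28039514, plus strand) was at 391, 402, 573 and 676 CPM in the wild-type and 769, 730, 477 and 757 CPM in the ΔAgo2 libraries, where ΔAgo2 replicate 3 alone lay among the wild-type values. Its log2 fold change was 0.42 (SE 0.29, adjusted p = 0.751). Col5a3 was at 29, 14.7, 17.5 and 32.7 CPM in the wild-type and 32.1, 33.3, 39.2 and 39.3 CPM in the ΔAgo2 libraries, with a log2 fold change of 0.62 (SE 0.31, adjusted p = 0.709). The groups of Col5a3 overlapped in CPM through wild-type replicate 4 and were apart in TPM, at 8.47 to 13.2 TPM against 17.7 to 20.4 TPM. How many of all tested genes were apart in TPM is not given here. Col5a2, the usual partner of Col5a1, did not pass the filter, with 3, 6, 24 and 1 counts in wild-type and 10, 6, 4 and 9 counts in ΔAgo2 libraries. Col5a1 mRNA was thus abundant in cells in which its partner was barely detected.

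Col27a1 (ENSMUSG00000045672, chr4:63214004-63334991, plus strand), a fibrillar chain of cartilage, had the smallest adjusted p of the collagen genes by edgeR, where DESeq2 gave Col8a1 a smaller value, and a very low level. It had 31, 17, 30 and 15 counts in wild-type and 3, 3, 3 and 1 counts in ΔAgo2 libraries, so the groups did not overlap. Summed over libraries and scaled for depth, the wild-type level was 8.36 times the ΔAgo2 level (95% exact interval 4.35 to 18, counting error only). The fitted log2 fold change was -3.04 (SE 0.55, adjusted p = 0.0635 by edgeR and 0.00127 by DESeq2), and with so few counts its size depends on the prior count of the fit. Without wild-type replicate 2 the adjusted p by edgeR was 0.0440 (0.541% of all tested genes called). It was 0.0512 without wild-type replicate 4, 0.0899 with the GC correction and 0.193 with the replicate block. Over the alternatives the log2 fold change ran from -3.26 to -0.12, and the adjusted p reached 0.819. Mean levels were 0.105 and 0.0150 TPM, the lowest of the 22.

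Col2a1 (chr15:97975602-98004695, minus strand), the main fibrillar collagen of cartilage, was at 13.7, 1.73, 9.24 and 11 CPM in the wild-type and 2.72, 3.37, 1.32 and 0.416 CPM in the ΔAgo2 libraries. Wild-type replicate 2 lay inside the ΔAgo2 range and the other 3 above it. By edgeR the log2 fold change was -2.18 (SE 0.72), with an adjusted p of 0.464, and of 0.0511 by DESeq2. Col11a2, a partner chain in cartilage fibrils, was at 3.13 to 7.5 CPM in the wild-type and 2.27 to 4.39 CPM in the ΔAgo2 libraries (log2 fold change -0.56, SE 0.39, adjusted p = 0.751 by edgeR), and Col11a1 had at most 10 counts in a library. Col1a1 and Col24a1 had log2 fold changes of -0.18 and -0.28, smaller than their standard errors of 0.605 and 0.614. Without wild-type replicate 4 that of Col1a1 was 0.44.

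Of the collagens that lie on fibrils or in the basement membrane zone, Col16a1 was at 242 to 428 CPM in the wild-type and 327 to 380 CPM in the ΔAgo2 libraries, with a log2 fold change of 0.08 (SE 0.26, adjusted p = 0.953 by edgeR), or 0.23 without wild-type replicate 4. Col18a1 (chr10:77052178-77166548, minus strand), whose C-terminal end is released as endostatin, was at 1769, 684, 1611 and 1042 CPM in the wild-type and 1510, 1532, 1871 and 2288 CPM in the ΔAgo2 libraries. Wild-type replicates 1 and 3 lay within the ΔAgo2 values in CPM. The log2 fold change was 0.50 (SE 0.35, adjusted p = 0.752). Part of Col18a1 overlaps Slc19a1 on the opposite strand, and the sources used here do not give the strand setting of the counting, but Slc19a1 had 15916 counts in all libraries together against 631789 for Col18a1.

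Col12a1, a FACIT chain of tendon and skin, was at 0.325, 0.864, 2.76 and 0.559 CPM in the wild-type and 0.521, 0.499, 0.221 and 0.340 CPM in the ΔAgo2 libraries, with a log2 fold change of -1.51 (SE 0.67, adjusted p = 0.670 by edgeR). Its wild-type mean rested on replicate 3, without which the log2 fold change was -0.56. Col20a1 overlaps another annotated gene on its own strand, which had 2562 counts against 1003 for Col20a1, so its values are uncertain. Its log2 fold change was -1.23 (SE 0.92), and those of Col14a1 and Col9a3 were 0.67 (SE 1.07) and -0.10 (SE 0.53). Without wild-type replicate 4 that of Col9a3 was -0.35. Col14a1 had 30, 15, 29 and 9 counts in wild-type and 8, 4, 1 and 115 counts in ΔAgo2 libraries. Its ΔAgo2 mean thus rested on replicate 4. Col7a1, the anchoring fibril chain, was at 6.14, 16.4, 37.4 and 26.2 CPM in the wild-type and 47.3, 43.9, 14.7 and 45.2 CPM in the ΔAgo2 libraries. ΔAgo2 replicate 3 lay among the wild-type values and the other 3 above them (log2 fold change 0.81, SE 0.54, adjusted p = 0.740 by edgeR).

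Below the filter were 22 genes: Col1a2, Col4a3, Col4a4, Col4a6, Col5a2, Col6a4, Col6a5, Col6a6, Col8a2, Col9a1, Col9a2, Col10a1, Col11a1, Col13a1, Col15a1, Col17a1, Col19a1, Col22a1, Col23a1, Col25a1, Col26a1 and Col28a1. Apart from Col1a2 none exceeded 24 counts in a library. Col19a1 and Col26a1 had 0 counts in every library, which allows up to 3 counts in each. Col28a1 had 6, 1, 3 and 1 counts in wild-type and 0 in each ΔAgo2 library. At this depth no difference between the groups could be read for these genes.

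**Figure D4:**
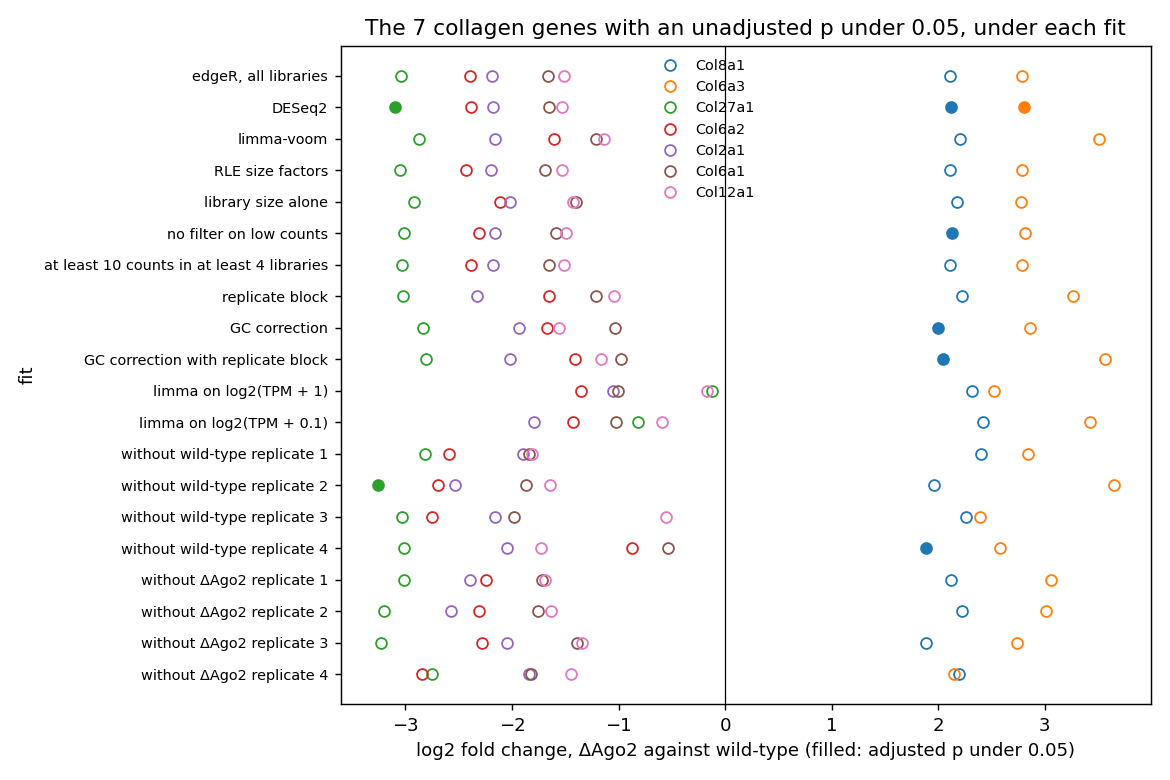
Log2 fold change of the 7 collagen genes with an unadjusted p under 0.05 under each fit, from the edgeR fit on all libraries at the top to fits that leave out a library at the bottom, with a filled circle for an adjusted p under 0.05. Col8a1 stays between 1.88 and 2.42 and is filled in 5 fits, Col27a1 is filled in 2 fits and Col6a3 in 1, and Col6a1 and Col6a2 move towards 0 without wild-type replicate 4.

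The miR-29 matches of all tested collagen genes, of which only some are printed above, were set beside the fold changes. Of the 22 tested collagen genes 15 carried a match (68.2%), against 13.99% of 12051 tested protein-coding genes. Among these 15 the log2 fold change was above 0 for 10 and below 0 for 5, and among the 7 without a match it was above 0 for 2 and below 0 for 5. The medians were 0.20 with and -0.56 without a match for the collagen genes, and -0.02 and -0.11 for all tested protein-coding genes. Without wild-type replicate 4 the collagen medians were 0.34 and -0.53, and those of all tested protein-coding genes -0.04 and -0.03. With the GC correction the collagen medians were 0.36 and -0.46, beside -0.02 and -0.08. The 5 genes with 2 or more matches, Col4a2, Col4a5, Col5a1, Col5a3 and Col7a1, had log2 fold changes of 0.20 to 0.81. None of them passed by edgeR (adjusted p = 0.709 to 0.910), and their mean levels were 9.92 to 520 TPM. Of the genes without a match, Col9a3, Col11a2, Col12a1, Col14a1 and Col20a1 were at only 0.171 to 2.05 TPM, whereas Col6a1 and Col18a1 were at 86.4 and 741 TPM. The part of the level in the split was not tested, and miR-29 itself was not measured here. The 10 genes with a single match ran from -3.04 for Col27a1 to 2.79 for Col6a3, and the type VI chains with a match followed by A, Col6a2 and Col6a3, lay on opposite sides of 0. With so few genes, which share partners and pathways, the split is a description and no test was made of it.

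**Figure D5:**
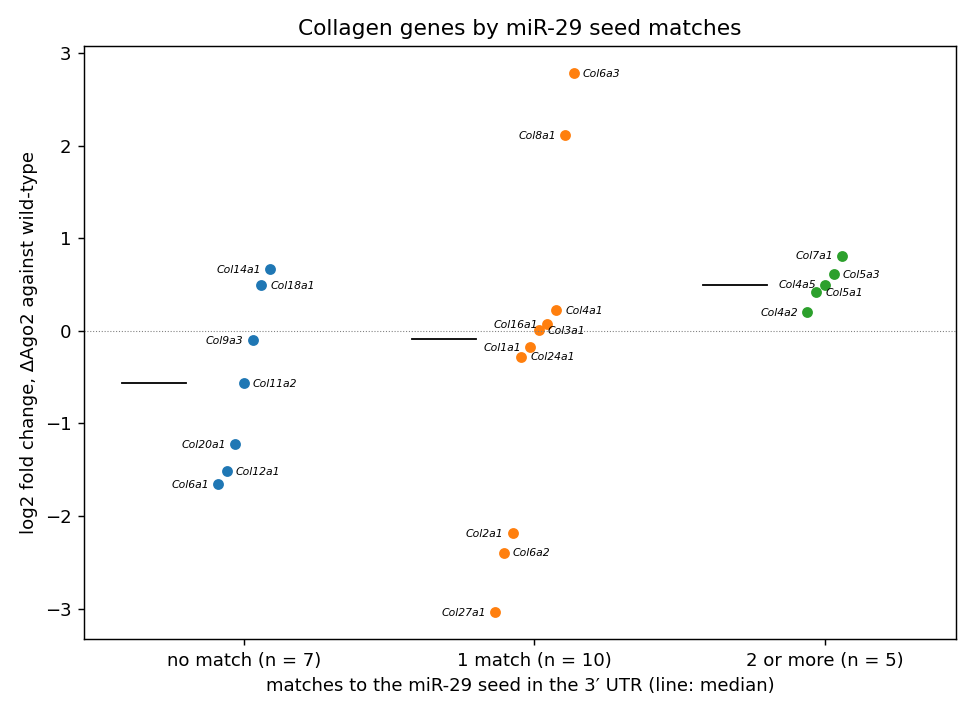
Log2 fold change (ΔAgo2 against wild-type) of the 22 tested collagen chain genes by the number of miR-29 seed matches in the 3′ UTR, with a short line for the median of each column. The 5 genes with 2 or more matches lie between 0.20 and 0.81, with adjusted p of 0.709 to 0.910 by edgeR, whereas those with 1 match spread from -3.04 to 2.79.

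The genes that make, export, cut, cross-link, bind and degrade collagen were read from 8 lists of 78 genes, of which 60 passed the filter. None had an adjusted p under 0.05 by edgeR. With an unadjusted p under 0.05 there were 0 of 60 higher in ΔAgo2, against 2.72% of all tested genes, and 4 of 60 lower, against 4.62%. The 4 were Loxl2, P3h4, Mrc2 and Tgfb3, with log2 fold changes of -5.45, -1.24, -0.98 and -0.80, and of -4.84, -0.73, -0.47 and -0.79 without wild-type replicate 4. The log2 fold change was above 0 for 30 of the 60, against 41.2% of all tested genes, with a median of 0.0017.

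Loxl2, a lysyl oxidase that cross-links collagen chains outside the cell, differed most. It had 242, 204, 552 and 520 counts in wild-type and 1, 1, 2 and 33 counts in ΔAgo2 libraries, and the groups did not overlap. The log2 fold change was -5.45 (SE 1.11), with an adjusted p of 0.0991 by edgeR and of 8.2e-07 by DESeq2. Without ΔAgo2 replicate 4, which held most of the ΔAgo2 counts, the adjusted p by edgeR was 0.0424. Adamts2, which trims the N-terminal propeptide of fibrillar chains, did not pass the filter, with 9, 4, 13 and 34 counts in wild-type and 4, 0, 1 and 1 counts in ΔAgo2 libraries, and had an adjusted p of 0.0390 by DESeq2.

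The 2 most abundant genes of each list were read next, with the log2 fold change without wild-type replicate 4 beside each. Serpinh1, the collagen chaperone of the endoplasmic reticulum, was at 1392 ± 327 TPM in wild-type and 1712 ± 285 TPM in ΔAgo2 libraries (SD, n = 4 each), with a log2 fold change of 0.02 and of 0.35 without that library. P4hb, a subunit of the enzyme that hydroxylates prolines of the chains, was at 1524 ± 401 and 1260 ± 180 TPM (-0.57 and -0.13). Pcolce, which helps to cut the C-terminal propeptide, had log2 fold changes of -0.02 and 0.85, and Bmp1, the protease that does so, of -0.08 and 0.42. For these 4 genes the value thus moved by more than 1.5 times, or turned, with that library.

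The export factor Mia3 had log2 fold changes of 0.30 (SE 0.41) and 0.0039. Sec24d, a coat protein of the export vesicles, was at 153 to 224 CPM in the wild-type and 122 to 151 CPM in the ΔAgo2 libraries, so that the groups did not overlap in CPM, although they did in TPM (78.55 to 94.95 against 69.8 to 84.2 TPM). Its log2 fold changes were -0.39 (SE 0.24, adjusted p = 0.739 by edgeR) and -0.26. Of the cross-linking enzymes, Loxl3 had 0.23 (SE 0.42) and 0.82, and Loxl4 had 0.42 (SE 0.25) and 0.54. The fibril-binding proteoglycan Bgn had 0.32 (SE 0.46) and 0.84, and Ogn, which ranged from 1.10 to 84.5 TPM over the libraries, had 0.15 (SE 1.00) and -0.24. The collagen receptors Itgb1 and Ddr2 had 0.51 (SE 0.49) and 0.34 (SE 0.44), and 0.20 and 0.04 without wild-type replicate 4. The collagen-cutting proteases Mmp14 and Mmp13 had 0.22 (SE 0.32) and -0.39 (SE 1.09), and 0.18 and -0.75 without it. The regulators Twist1 and Smad4 had -0.42 (SE 0.27) and -0.17 (SE 0.29), and -0.38 and -0.34 without it. Apart from Sec24d the groups of these genes overlapped in CPM.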

How the data were processed

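RNA from wild-type and ΔAgo2 LLC cells in culture was made into stranded mRNA libraries, 4 per genotype (100 bp, paired-end). Per the labels and the study's methods, the authors aligned reads to ribosomal RNA and then to mm10 (STAR, version not given in the sources used here) and counted them with featureCounts. The annotation release and strand setting are not given in the sources used here. The deposited counts are whole reads per gene, without normalization, and their size sets the precision. The deposited TPM are the authors' counts per gene length, scaled to a fixed sum, and were used for levels between genes.

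Identifiers were matched without version to GENCODE M21 (GRCm38), and 93 of 55487 had no match. Genes were filtered with filterByExpr, scaled with TMM and tested with edgeR 4.0.16 (R 4.3.3), quasi-likelihood, two-sided, genotype alone, with Benjamini-Hochberg adjustment over 14228 genes. Standard errors were obtained from the F statistic as the absolute log2 fold change over its square root. Chain ratios were tested with exact permutation tests (scipy 1.17.1). The fits were also run on simulated counts, with no outcome given here. In the simulation both groups of a gene had the same spread. The data did not (median SD of log2 CPM 0.76 in wild-type and 0.23 in ΔAgo2), so that run does not check the fits for unequal spread. Mature miRNAs came from RefSeq (GRCm38.p6) and 3′ UTR sites from GENCODE M21. Intervals and floors (3 counts) cover counting error only.

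The collagen genes, classes, marker and pathway lists were chosen with earlier results of these data known. The genes given in detail are the 8 with the highest mean TPM, the 6 with the smallest p in each direction and their partner chains, and of each pathway list the 2 with the highest mean TPM and any with an adjusted p under 0.05 by edgeR or DESeq2. P3h4, Mrc2 and Tgfb3 were named after their values were seen, as were the other tested collagen genes. The alternatives were DESeq2 1.42.0, limma-voom (limma 3.58.1), RLE factors, library size alone, no filter, at least 10 counts in at least 4 libraries, the replicate number as a block, a GC correction of each library over 20 bins with and without that block, limma on log2(TPM + 1) and log2(TPM + 0.1), and each library left out in turn. Leaving out libraries and other scalings for the non-overlap counts and the summed TPM, and part of the fits of the pathway genes, were added after seeing the data.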

Additional observations from a re-analysis of the deposited data

Results flagged for a closer look

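In groups of 4 libraries, a library was picked out when its gap to the nearest other library, divided by the whole range of the group, exceeded Dixon's 95% critical value. The gap of a gene was taken on log2 CPM and that of the summed collagen level on TPM. The gaps of genes therefore do not follow directly from the CPM printed beside them, and on unlogged CPM they would differ. Of 50 groups checked, 4 met this, and chance picks out about 1 in 20. ΔAgo2 replicate 3 was low for Col5a1 (477 CPM against 730 to 769 CPM, a gap of 0.891 of the range), for Col7a1 (14.7 CPM against 43.9 to 47.3 CPM, 0.937 of the range) and for Col6a1 (23.1 CPM against 68.6 to 84.3 CPM, 0.841 of the range). Wild-type replicate 3 was high for the summed collagen TPM (3627 TPM against 2292 to 2421 TPM, 0.903 of the range). Without ΔAgo2 replicate 3 the log2 fold changes were 0.55 for Col5a1, 1.06 for Col7a1 and -1.39 for Col6a1, against 0.42, 0.81 and -1.66 with it. Without wild-type replicate 3 the mean summed collagen TPM of ΔAgo2 was 1.54 times that of wild-type, against 1.35 times with it.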

How the results depend on the processing

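Depth limits the 22 genes below the filter and Col27a1. Of 418 pairs of a tested collagen gene and an alternative, 382 kept the direction and side of the threshold, 8 passed where the main test did not, and 28 reversed, and 15 of 22 genes kept their direction in all 19 alternatives. The count of collagen genes called, 0, was 3 with DESeq2 and 1 with no filter, with the GC correction and with the GC correction and replicate block, and 0 to 1 with a library left out (1 without wild-type replicate 2, Col27a1, and without wild-type replicate 4, Col8a1). Over all genes 42 were called, 399 with DESeq2, 143 with no filter, 70 with the GC correction, 15 with limma on log2(TPM + 1), and 1 to 113 with a library left out (1 without ΔAgo2 replicate 1, 7 without each other ΔAgo2 replicate, 12, 78 and 113 without wild-type replicates 1, 2 and 4). The replicate numbers did not pair the libraries (correlations of same-numbered deviations -0.15, -0.06, 0.39 and 0.02), and with the replicate block 18 genes were called, none of them a collagen gene. The median collagen log2 fold change of 0.04 was 0.32 with the GC correction and -0.05 to 0.25 with a library left out. Of the pathway genes, 0 became 2 with DESeq2 and 1, Loxl2, with limma-voom, no filter, the replicate block, the GC correction with replicate block and limma on both TPM scales, and 0 to 1 with a library left out (1 without ΔAgo2 replicate 4). The 3 genes without overlap were 3 to 6 with a library left out (6 without wild-type replicate 3, 5 without ΔAgo2 replicate 3). The ratio of summed TPM, 1.35, was 1.27 to 1.54. The log2 difference of the Col4a1 to Col4a2 ratio, -0.0078, was -0.15 to 0.075 with a library left out, turning above 0 without wild-type replicate 2 or 3 or ΔAgo2 replicate 3, and that of Col6a1 to Col6a2 was 0.14 to 0.73. The 24 genes with a miR-29 match became 15 when a following A was required. Reversals by a fit were Col3a1 (-0.0067 with RLE), Col9a3 (0.021 with the replicate block, 0.27 with GC correction and block, 0.050 and 0.18 on log2(TPM + 1) and log2(TPM + 0.1)), Col24a1 (0.022 on log2(TPM + 0.1)), Col1a1 (0.0074 with library size, 0.32 with the GC correction, 0.082 with correction and block, 0.027 and 0.0096 on the TPM scales) and Col14a1 (-0.93 with limma-voom, -1.02 with the block, -0.99 with correction and block, -0.13 on log2(TPM + 0.1)). With a library left out the ranges were -0.37 to 0.37 for Col3a1, -0.37 to 0.34 for Col9a3, -0.60 to 0.053 for Col24a1, -0.045 to 0.23 for Col16a1, -0.037 to 0.53 for Col4a2, -0.85 to 0.44 for Col1a1 and -2.13 to 1.06 for Col14a1. The cause of these shifts was not tested.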
